A study of Homo sapiens with 2 samples.

Results

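The 8 genes described here encode secreted inflammatory proteins of HMC3 cells: the cytokines IL6, CSF3 and IL32, the CXC chemokines CXCL8, CXCL1 and CXCL2, the CC chemokine CCL2, and the soluble pattern recognition molecule PTX3. They were chosen by symbol, as a group of secreted inflammatory factors, and all 8 were found among the 11943 protein-coding genes of the tables. HMC3 is an immortalised human microglial cell line, labelled wild type. It was treated either with PBS, the vehicle, or with rhPOSTN, recombinant human periostin, a matricellular protein that binds integrins. Poly(A) RNA was sequenced in 3 libraries per group after a single dose and a single duration, and the comparison asks how the transcriptome of microglia responds to periostin. All libraries come from this 1 line, and the sources used here do not say whether those of a group were grown as separate cultures. The p-values therefore refer to variation among the sequenced libraries alone, and this variation may be technical.

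These proteins share a mode of control. Interleukin-1, TNF or bacterial products activate NF-kB, which enters the nucleus and binds short sites in the promoters of cytokine and chemokine genes, often together with C/EBP and AP-1 factors. Many of the resulting mRNAs carry AU-rich elements in the 3′ untranslated region, which bind decay factors such as ZFP36 and keep the message short-lived. IL6 acts through the IL6 receptor and gp130, CXCL1, CXCL2 and CXCL8 draw neutrophils through CXCR1 and CXCR2, and CCL2 draws monocytes through CCR2. CSF3, also called G-CSF, drives the formation of neutrophils. PTX3 is a long pentraxin that binds microbes, complement C1q and the hyaluronan matrix.

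The promoters are shown first because 5 of the 6 genes with an entry carry the same short pattern just before the start of transcription. This pattern, GGNNTTTCC, is a narrow form of an NF-kB site. RefSeq promoters of GRCh38.p14 were found for 6 of the 8 genes, and CCL2 and CSF3 had no entry. Each line gives the 120 bases before the start, 5′ to 3′ on the strand of the gene, with matches to GGNNTTTCC in capitals. The letters were chosen after the promoters had been read.
CXCL1 (chr4:73869273-73869392, plus strand): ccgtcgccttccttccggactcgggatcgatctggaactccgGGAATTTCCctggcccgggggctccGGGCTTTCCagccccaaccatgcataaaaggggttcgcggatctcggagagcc
CXCL2 (chr4:74099196-74099315, minus strand): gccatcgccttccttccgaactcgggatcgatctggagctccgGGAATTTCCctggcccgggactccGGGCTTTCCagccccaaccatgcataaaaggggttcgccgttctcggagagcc
CXCL8 (chr4:73740449-73740568, plus strand): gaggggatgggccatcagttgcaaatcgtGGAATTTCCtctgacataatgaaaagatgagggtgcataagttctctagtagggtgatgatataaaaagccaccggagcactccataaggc
IL6 (chr7:22727080-22727199, plus strand): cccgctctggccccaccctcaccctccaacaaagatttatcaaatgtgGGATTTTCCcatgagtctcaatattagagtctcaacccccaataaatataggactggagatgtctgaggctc
IL32, first start (chr16:3065283-3065402, plus strand): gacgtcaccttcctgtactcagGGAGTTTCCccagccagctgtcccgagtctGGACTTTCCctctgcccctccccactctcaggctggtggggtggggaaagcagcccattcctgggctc
PTX3 (chr3:157436730-157436849, plus strand): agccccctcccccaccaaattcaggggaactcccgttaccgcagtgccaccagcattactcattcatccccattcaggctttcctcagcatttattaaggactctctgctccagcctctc

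Both strands were searched over the 250 bases before the start. CXCL1 and CXCL2 each held 2 matches, the nearer one beginning 53 bases before the start in both genes, and the surrounding bases of these genes, both on chromosome 4, read almost alike. CXCL8 held 1 match, 91 bases before the start, and IL6 held 1 match, 72 bases before it. IL32 held 2 matches before its first start, the nearer at 68 bases, and 0 before its second start. PTX3 held 0 matches to this narrow pattern. Looser forms of an NF-kB site were not searched, so this does not show that PTX3 lacks such a site. Of all 35116 RefSeq promoters, 5.48% held at least 1 match. The pattern was chosen after the promoters of these genes were read, so this share is a description and not a test. The AP-1 letters TGANTCA occurred once, 137 bases before the start of CXCL8, and in 6.57% of all promoters. A match is a description of the letters and not a bound site, and these libraries do not measure binding.

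The AU-rich elements are shown because they are the other sequence feature that most of these genes share. Counted as ATTTA in the 3′ untranslated region of 1 GENCODE v29 transcript per gene, the median of 11199 listed genes was 2 copies, or 1.726 per kilobase, and 27.3% had none. The 30 bases with the most copies follow for the 6 genes with at least 2 in such a window, with each ATTTA in capitals.
CXCL2: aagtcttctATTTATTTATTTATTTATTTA
CXCL8: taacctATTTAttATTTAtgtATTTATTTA
CXCL1: cttaggagaagtcttctATTTATTTATTTA
CSF3: tcccatgtATTTAtctctATTTAatATTTA
IL6: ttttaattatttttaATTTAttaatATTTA
PTX3: actagctcacgtcATTTAattataaATTTA

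CXCL2 had 10 copies in 721 bases and CXCL8 9 in 1252 bases. CSF3 had 7 copies in 854 bases, IL6 6 in 429 bases, CXCL1 5 in 706 bases and PTX3 4 in 649 bases. Per kilobase these 6 genes lay between the 94.66th percentile (PTX3) and the 99.66th (IL6) of the listed genes. CCL2 had 1 copy in 376 bases and IL32 had 0 in 373 bases. Windows with 3 or more copies in 30 bases occurred in 3.02% of genes, and CXCL1, CXCL2, CXCL8 and CSF3 were among them. Windows with at least 2 copies, the most that IL6 and PTX3 had, occurred in 24% of genes.

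Before the values, the libraries themselves need a description. PBS library 3 stood apart: its correlation with the other libraries across the tested genes lay between 0.913 and 0.940, against 0.973 to 0.983 for the 10 pairs among the other 5. The 13 mitochondrially encoded genes made up 1.48% of its summed FPKM and between 4.95% and 7.77% in the others. It was the highest or the lowest of the 6 libraries for 74.5% of tested genes, against 20.5% to 29.5% for the others, and for 7 of the 8 genes described here. Results are therefore given with and without it, and the part of these differences in the results was not tested. Of 19 microglial markers, 4 were listed (CD68, TREM2, OLFML3 and CD14), with a summed level of 11.5 to 21.2 FPKM in PBS and 16.2 to 20.96 FPKM in rhPOSTN libraries. TMEM119, P2RY12, CX3CR1, AIF1 and CSF1R, which were among the markers looked up, had no entry among the listed genes. Of 12 mesenchymal markers 9 were listed, and their sum was 852 to 1073 FPKM in PBS and 792 to 883 FPKM in rhPOSTN libraries. The microglial label thus rests here on few markers. Of the T cell markers 0 of 4 were listed.

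The genes spanned a wide range of levels. As the mean of the 6 libraries, in FPKM (sequenced fragments corrected for transcript length and for the total mapped in a library), CXCL1 was highest at 69.2, followed by PTX3 at 47.4, CXCL8 at 33.02, IL6 at 27.2 and IL32 at 21.9. CXCL2 at 8.53 and CSF3 at 6.61 lay near the median gene, at 6.29. CCL2 was lowest, at 1.66, the 17.1th percentile of all listed genes, whereas CXCL1 was at the 96.7th. Neighbours in this order had overlapping library values, except that every library of IL32 was above every library of CXCL2 and every library of CSF3 above every library of CCL2.

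**Figure D1:**
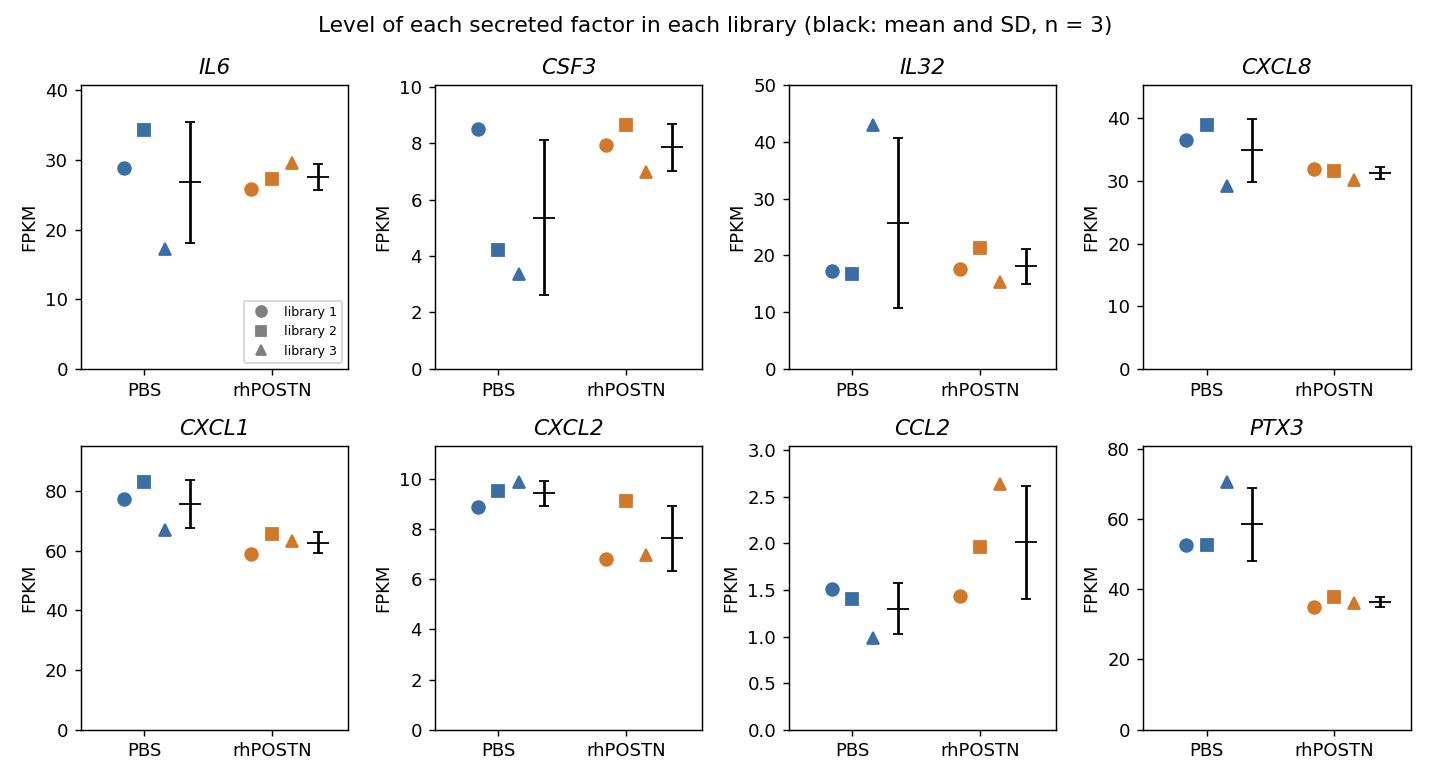
FPKM of the 8 genes in each library, 1 panel per gene with its own axis from 0. Points are libraries 1 to 3 of the PBS and rhPOSTN groups, and black lines with bars give the group mean and SD (n = 3). PTX3 lay between 52.5 and 70.5 after PBS and between 35.03 and 37.9 after rhPOSTN.

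None of the 8 genes passed the test across all genes. With limma on log2(FPKM + 1) and Benjamini-Hochberg adjustment over 10982 tested genes, the smallest adjusted p was 0.951, and 0.0182% of all tested genes passed in either direction. The 2 genes that passed, AL132780.3 and TIGD1, belong to no list here. By unadjusted p, PTX3 was below 0.05 among genes with a lower mean after rhPOSTN, as were 0.765% of tested genes, and no member was below 0.05 among those with a higher mean, as were 2.45%. The groups did not overlap for PTX3 and CXCL1, both with lower values after rhPOSTN, where 2.76% of tested genes lay apart in that direction and 8.94% in the other. The difference was negative for 5 genes and positive for 3, with a median of -0.21, whereas the median of all tested genes was 0.06 and 36.5% of them were negative. Without PBS library 3 the median of the 8 was -0.22 and that of all tested genes 0.0347.

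**Figure D2:**
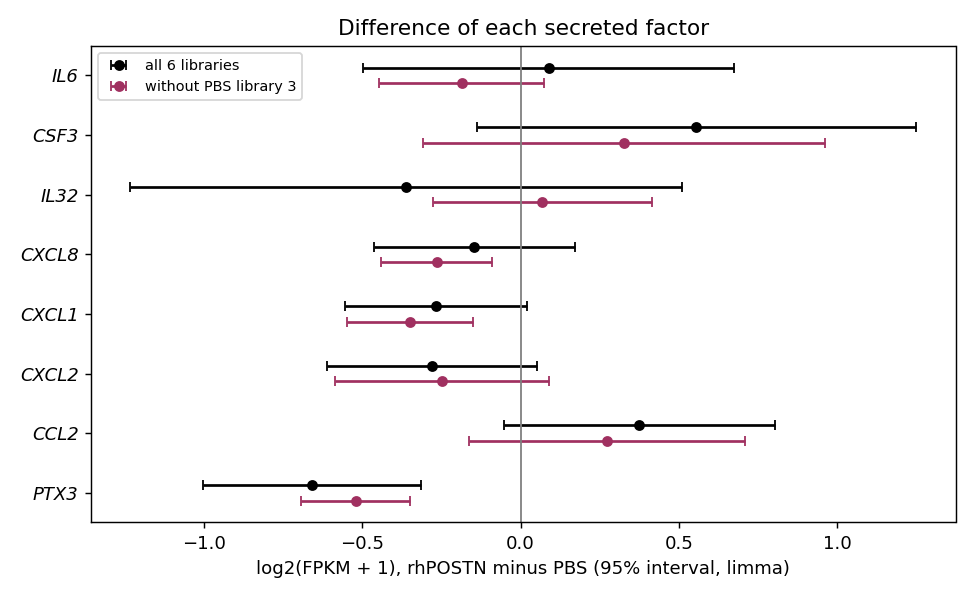
Difference in log2(FPKM + 1), rhPOSTN minus PBS, for each of the 8 genes, with 95% confidence intervals from limma, for all 6 libraries and without PBS library 3. The interval lies below 0 for PTX3 in both, and for CXCL1 and CXCL8 without that library.

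PTX3 (ENSG00000163661.3_2, chromosome 3 from 157154578 to 157161417, plus strand, GRCh37) showed the clearest separation. Its level was 52.5, 52.6 and 70.5 FPKM in PBS libraries 1, 2 and 3 and 35.03, 37.9 and 36.03 FPKM in rhPOSTN libraries 1, 2 and 3. Every rhPOSTN library was below every PBS library. Group means of 58.5 ± 10.3 and 36.3 ± 1.46 FPKM (SD, n = 3) gave a ratio of 0.621. On the log2 scale the difference was -0.66 ± 0.14 (SE), with a 95% interval whose upper bound was -0.32, an unadjusted limma p of 0.00296 and an adjusted p of 0.951. The exact two-sided permutation test gave 0.1, the smallest value that 3 libraries against 3 allow. Leaving out PBS library 3 gave -0.52 ± 0.069 and an adjusted limma p of 0.159, the lowest of 16 alternative settings, in which the adjusted p reached up to 1.0. In these settings the difference ranged from -0.74 to -0.52, and the unadjusted p was below 0.05 in each.

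The PTX3 locus is overlapped on the opposite strand by VEPH1, and whether the abundance estimate used the strand is not given in the sources used here. PTX3 was the most evenly measured of the 8 genes after rhPOSTN apart from CXCL8, with a coefficient of variation of 4.03% against 17.7% after PBS.

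The CXC chemokines CXCL1, CXCL2 and CXCL8 had lower means after rhPOSTN without passing the test. CXCL1 (ENSG00000163739.4_2, chromosome 4 from 74735110 to 74736959, plus strand), a neutrophil attractant, had values of 77.3, 82.9 and 67.1 FPKM after PBS and 58.8, 65.7 and 63.3 FPKM after rhPOSTN. The groups did not overlap, though PBS library 3 and rhPOSTN library 2 were close. The means were 75.8 ± 8.01 and 62.6 ± 3.53 FPKM (SD, n = 3), and the log2 difference was -0.27 ± 0.12 (SE). The limma p was 0.0647 before adjustment and 0.951 after it, and the exact permutation p was 0.1. When PBS library 3 was left out, the difference was -0.35 ± 0.080, with an unadjusted limma p of 0.00535. The adjusted p was then 0.453, the lowest over the alternatives, which reached up to 1.0.

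CXCL8 (ENSG00000169429.10_2, chromosome 4 from 74606223 to 74609433, plus strand), also known as interleukin-8, measured 36.5, 38.9 and 29.2 FPKM after PBS and 31.8, 31.6 and 30.1 FPKM after rhPOSTN. PBS library 3 was the lowest of the 6, so the groups overlapped. The log2 difference was -0.15 ± 0.13 (SE), with an adjusted limma p of 0.951. Without PBS library 3 the difference was -0.26 ± 0.071, with an unadjusted limma p of 0.0105. In that fit 2.48% of tested genes were below 0.05 with a lower mean. The adjusted p was then 0.460, and over all alternatives it lay between this value and 1.0.

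CXCL2 (ENSG00000081041.8_2, chromosome 4 from 74962752 to 74965010, minus strand) lies in the same chemokine cluster as CXCL1 and attracts the same cells. Its level was 8.88, 9.53 and 9.88 FPKM after PBS and 6.82, 9.13 and 6.98 FPKM after rhPOSTN. Libraries 1 and 3 of rhPOSTN were below all PBS libraries, and library 2 was among them. The log2 difference was -0.28 ± 0.14 (SE), the adjusted limma p 0.951, and the exact permutation p 0.2. Leaving out PBS library 3 gave -0.25 ± 0.14 and an adjusted p of 0.591, the lowest over the alternatives, which reached up to 1.0. Leaving out rhPOSTN library 2, which lay among the PBS libraries, gave -0.40, with a limma p of 0.0274 and 0.965 adjusted. That choice of library enlarges the difference by itself, and the other omissions gave unadjusted limma p from 0.114 to 0.238.

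CXCL1 and CXCL2 share sequence, so their values are uncertain where reads were divided between them. Of the 31-base stretches of their transcripts, 15.5% of those of CXCL1 and 19.8% of those of CXCL2 also occur in the other or in CXCL3. The other 6 genes shared none with any other listed mRNA. The ratio of CXCL1 to CXCL2 was 8.71, 8.70 and 6.79 in PBS and 8.63, 7.20 and 9.08 in rhPOSTN libraries, which overlap. The sum of the 3 CXC chemokines was 122.7, 131.3 and 106.1 FPKM in PBS and 97.5, 106.5 and 100.4 FPKM in rhPOSTN libraries. PBS library 3 lay within the rhPOSTN range. The ratio of the means, 120.03 ± 12.8 and 101.5 ± 4.61 FPKM (SD, n = 3), was 0.845, or 0.799 without PBS library 3.

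CCL2 (ENSG00000108691.9_2, chromosome 17 from 32582237 to 32584222, plus strand), the monocyte attractant, was at low level. Its values were 1.51, 1.40 and 0.988 FPKM in PBS and 1.43, 1.96 and 2.64 FPKM in rhPOSTN libraries. Its lowest and highest libraries were PBS library 3 and rhPOSTN library 3, and the groups overlapped. The log2 difference was 0.38 ± 0.18 (SE), a ratio of means of 1.55, with a limma p of 0.0762 before adjustment and 0.951 after it. Leaving out rhPOSTN library 1, which lay within the PBS range, gave 0.52 with a limma p of 0.0266 before adjustment and 0.990 after it. That choice of library enlarges the difference by itself, and the other omissions gave unadjusted limma p from 0.0815 to 0.234. Leaving out PBS library 3 gave 0.27 with an unadjusted limma p of 0.173. At this level the added 1 FPKM makes the log2 difference smaller than the ratio.

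Of the cytokines, IL6 (ENSG00000136244.11_3, chromosome 7 from 22765503 to 22771621, plus strand), which signals through gp130, showed no difference beyond its spread. Its level was 28.8, 34.3 and 17.3 FPKM in PBS and 25.9, 27.2 and 29.6 FPKM in rhPOSTN libraries. The PBS libraries spread on both sides of the rhPOSTN libraries, with PBS library 3 lowest. The means were 26.8 ± 8.70 and 27.6 ± 1.88 FPKM (SD, n = 3), and the log2 difference was 0.089 ± 0.24 (SE), with a 95% interval from -0.50 to 0.68 and an adjusted limma p of 0.962. The sign changed to -0.19 ± 0.10 when PBS library 3 was left out, with an adjusted p of 0.595 against a range from this value to 1.0 over the alternatives. STEAP1B and an antisense gene, AC073072.1, overlap IL6 on the opposite strand.

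CSF3 (ENSG00000108342.12_2, chromosome 17 from 38171614 to 38174066, plus strand), the granulocyte colony-stimulating factor, reached 8.50, 4.22 and 3.37 FPKM after PBS and 7.93, 8.64 and 6.99 FPKM after rhPOSTN. PBS library 1 was as high as the rhPOSTN libraries and the other 2 PBS libraries were below them all. The log2 difference was 0.56 ± 0.29 (SE), with a limma p of 0.0994 and 0.951 adjusted. It was 0.33 ± 0.26 without PBS library 3. Without PBS library 1, the only PBS library within the rhPOSTN range, it was 0.89, with a limma p of 0.00195 and 0.805 adjusted. Omitting the library that overlaps enlarges the difference by that choice, so this p is no added evidence. The other omissions gave unadjusted limma p from 0.124 to 0.253. Over the alternatives the adjusted p lay between 0.678 and 1.0.

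IL32 (ENSG00000008517.16_4, chromosome 16 from 3115298 to 3132193, plus strand), an inducer of TNF and other cytokines, was decided by 1 library. Its level was 17.3, 16.8 and 43.04 FPKM in PBS and 17.6, 21.3 and 15.3 FPKM in rhPOSTN libraries. All but PBS library 3 lay in one narrow range. The log2 difference was -0.36 ± 0.36 (SE) with all libraries and 0.068 ± 0.14 without PBS library 3, with adjusted limma p of 0.951 and 0.880 (0.751 to 1.0 over the alternatives). The mesenchymal marker COL1A1 was also highest in PBS library 3, at 324 FPKM against 98.3 to 135 FPKM elsewhere. COL1A2 and TAGLN were highest there too. FN1, at 192 FPKM against 194 to 293 FPKM elsewhere, and PDGFRB were lowest there, and the other listed mesenchymal markers lay between. What part these differences had in the IL32 value was not tested. IL32 overlaps the snRNA gene RNU1-125P on its own strand.

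**Figure D3:**
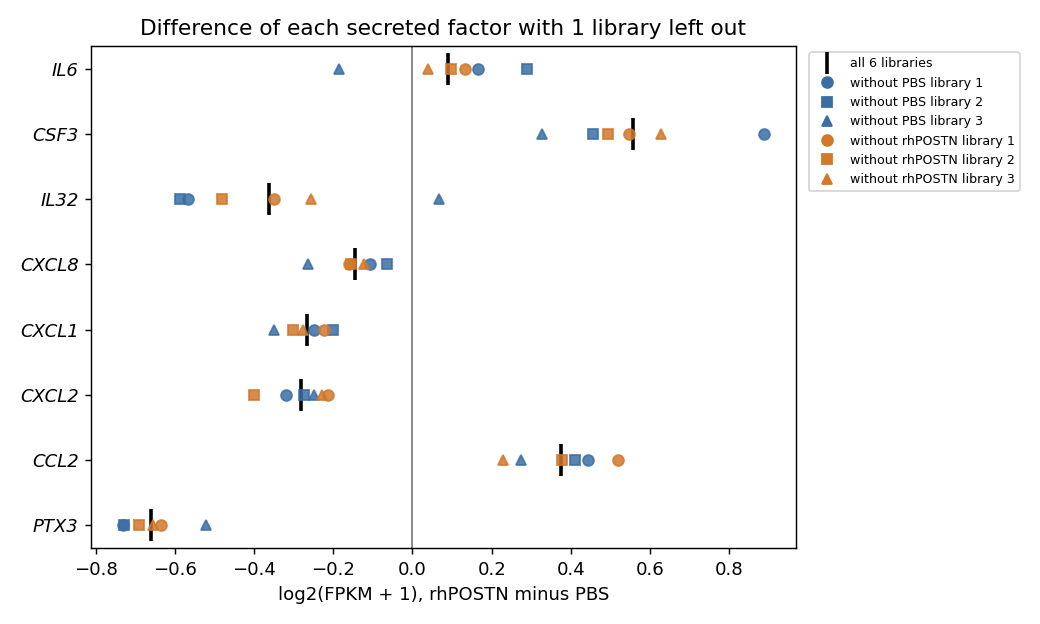
Difference in log2(FPKM + 1), rhPOSTN minus PBS, for each gene with all 6 libraries (black bars) and with each library left out in turn (symbols). IL6 and IL32 crossed 0 when PBS library 3 was left out, and the other 6 genes kept their sign in every omission.

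Without PBS library 3, unadjusted limma p-values below 0.05 occurred for CXCL8, CXCL1 and PTX3, all with lower means after rhPOSTN, where 2.48% of tested genes were below 0.05 in that direction and 7.07% in the other. No member passed the adjusted threshold then, against 0.1% of tested genes. The spread within groups was smaller after rhPOSTN for 6 of the 8 genes, as it was for 77.3% of tested genes, with CXCL2 and CCL2 as the exceptions.

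The summed level of the 8 genes was 231.3, 240.6 and 241.3 FPKM in PBS and 185.3, 203.5 and 191.0 FPKM in rhPOSTN libraries. The groups did not overlap, with means of 237.7 ± 5.56 and 193.2 ± 9.33 FPKM (SD, n = 3) and a ratio of 0.813. PTX3 and CXCL1 together made up 56.1% to 57.0% of it in PBS and 50.6% to 52.0% in rhPOSTN libraries. Without PTX3 the sums were 178.8, 188.0 and 170.8 FPKM in PBS and 150.3, 165.6 and 154.9 FPKM in rhPOSTN libraries, again with no overlap. The ratio of the means was then 0.876, or 0.856 without PBS library 3. The sum of PBS library 3 includes its high IL32 value, 43.04 FPKM against 15.3 to 21.3 FPKM in the other libraries. Sums without IL32 were not computed, so a lower level of the remaining genes as a group is not shown. As the members were chosen with results known, no test was made on these sums.

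**Figure D4:**
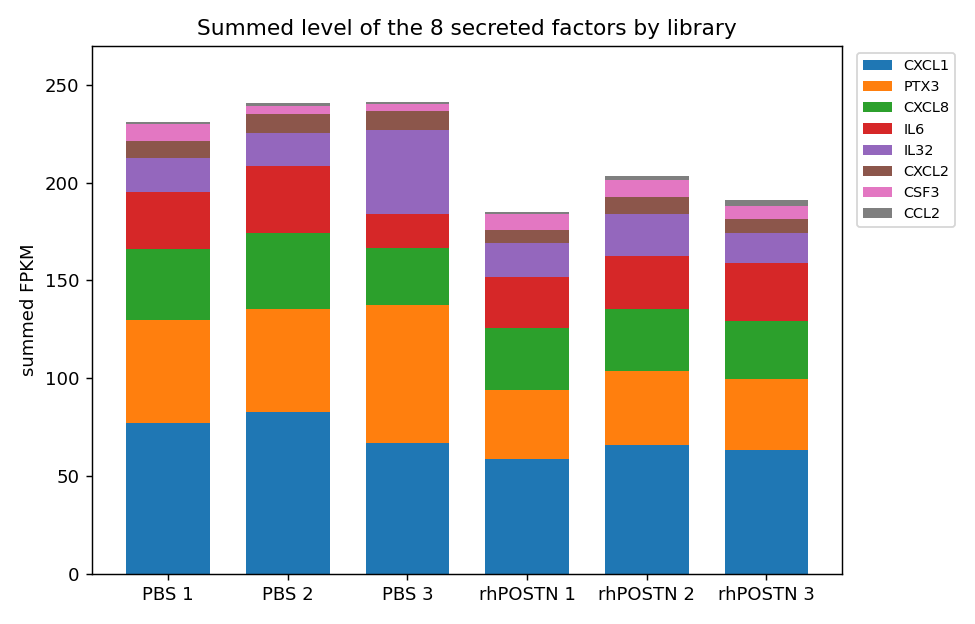
Summed FPKM of the 8 genes in each library, stacked by gene, for 3 PBS and 3 rhPOSTN libraries. The total lay between 231.3 and 241.3 after PBS and between 185.3 and 203.5 after rhPOSTN.

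Lists of related genes gave the context in which these 8 sit, and none of their members passed the adjusted limma test, with all libraries or without PBS library 3. Beside the counts of signs below, 36.5% of all tested genes were negative with all libraries and 41.1% without PBS library 3. Of 34 symbols for other chemokines, among which CXCL7 and PPBP name the same gene, 5 were tested. With all libraries 3 had a positive and 2 a negative difference (median 0.14), but 1 was positive and 4 negative without PBS library 3 (median -0.14). CCL5, an attractant of T cells, was the most abundant, with 19.2, 19.3 and 11.5 FPKM after PBS and 15.4, 19.0 and 19.8 FPKM after rhPOSTN, and its groups overlapped. CXCL16 and CCL26 followed at lower levels. Of 51 other cytokines 17 were tested, 13 positive and 4 negative, against 9 positive and 8 negative without that library (medians 0.13 and 0.062). MIF was the most abundant, followed by TGFB2 and GDF15. GDF15, a stress-induced member of the TGF-beta family, measured 18.2, 19.1 and 23.4 FPKM after PBS and 25.1, 30.1 and 25.5 FPKM after rhPOSTN. Its groups did not overlap, with a log2 difference of 0.40 ± 0.14 (SE), an unadjusted limma p of 0.0256 and an adjusted p of 0.951. Without PBS library 3, GDF15, CSF1 and IL18 had unadjusted limma p below 0.05, all with higher means after rhPOSTN, as had 7.07% of tested genes. No gene of that list was then below 0.05 with a lower mean.

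Of 13 receptors 6 were tested, 3 positive and 3 negative, or 2 and 4 without PBS library 3. The chemokine receptors CXCR1, CXCR2 and CCR2 and the receptor CSF3R had no entry among the listed genes. The syndecan SDC4, which binds chemokines through heparan sulfate, was the most abundant, ahead of IL6ST, which encodes gp130, and SDC1. IL6ST measured 42.5, 43.5 and 19.0 FPKM after PBS and 43.3, 33.1 and 42.2 FPKM after rhPOSTN, low in PBS library 3 as IL6 was.

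Of 30 regulators in the NF-kB, C/EBP and JAK-STAT pathways 27 were tested, 16 positive and 11 negative, or 18 and 9 without PBS library 3 (medians 0.025 and 0.063). CEBPB, TNIP1 and JAK1 were the most abundant. NFKBIA, which encodes the inhibitor that holds NF-kB in the cytoplasm and is itself induced by NF-kB, measured 21.2, 16.5 and 23.5 FPKM after PBS and 28.03, 33.1 and 28.97 FPKM after rhPOSTN. Every rhPOSTN library was above every PBS library, with a log2 difference of 0.55 ± 0.16 (SE), an unadjusted limma p of 0.0108 and an adjusted p of 0.951. When PBS library 3 was left out, NFKBIZ had an unadjusted limma p of 0.00387, with a lower mean after rhPOSTN. NFKBIA then had an unadjusted limma p of 0.00303, with a higher mean.

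Of 22 symbols for regulators of mRNA decay and stability 21 were tested, and the other, REGNASE1, is another name for ZC3H12A, which was tested. With all libraries 14 were positive and 7 negative, and without PBS library 3 this turned to 7 positive and 14 negative, with the median moving from 0.15 to -0.040. KHSRP and HNRNPD, which bind AU-rich elements, were the most abundant, followed by ZFP36L2, a decay factor of the ZFP36 family. AUH, an AU-binding protein better known as a mitochondrial enzyme of leucine breakdown, measured 6.41, 6.52 and 8.30 FPKM after PBS and 5.01, 3.99 and 4.71 FPKM after rhPOSTN, with a log2 difference of -0.53, an unadjusted limma p of 0.00860 and an adjusted p of 0.951. PAN2, a deadenylase, had a log2 difference of 0.38 with an unadjusted p of 0.0344. Of 30 genes of humoral pattern recognition and partners of PTX3, 12 were tested, 9 positive and 3 negative (median 0.14). This also turned without PBS library 3, to 5 positive and 7 negative (median -0.027). FGF2, a ligand that PTX3 binds, C3 and CD46 were the most abundant. HAS2, which makes hyaluronan, had an unadjusted p below 0.05 and a lower mean after rhPOSTN when PBS library 3 was left out.

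The genes whose profile over the 6 libraries was most like that of each member were found by Pearson r of log2(FPKM + 1), as a description over 6 libraries that share PBS library 3. PTX3 was closest to SP110 (r = 0.991), SRP14 (0.989) and P4HB (0.988), and CXCL1 to SSR3 (0.995), LGALS9 (0.986) and PGK1 (0.985). CXCL8 was closest to P2RX5 (0.995), KRTAP2-3 (0.988) and NFKBIZ (0.988), and CXCL2 to ANXA7 (0.969), GALNT6 (0.957) and PSMA5 (0.956). IL6 was closest to RPA2 (0.998), BAG2 (0.997) and CDC42 (0.996), and IL32 to SRSF9 (0.999), MGAT1 (0.999) and DNAJC7 (0.998). PBS library 3 was the highest or the lowest of the 6 for every member but CXCL1, and how far these r values rest on it was not tested. CCL2 was closest to C17orf67 (0.991), DEPTOR (0.986) and DEPDC7 (0.984), and CSF3 to EVI2A (0.991), NT5DC3 (0.977) and DNAJB12 (0.972).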

How the data were processed

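HMC3 libraries were grouped by the treatment label. The authors trimmed reads with Cutadapt, aligned them with HISAT2, estimated abundance with StringTie and obtained gene values with Ballgown; the submitters' notes name GRCh37, on which the gene positions are given. The deposited values are FPKM, which keep no read counts, so the depth of the libraries is not known and counting error was not computed. The rhPOSTN table names no unit, and FPKM was taken from the PBS table and the methods. In all, 0 columns were left unused.

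Values were analysed as log2(FPKM + 1), which understates changes of low genes. Genes with mean FPKM of at least 1 in either group were tested with limma 3.58.1 in R 4.3.3 (empirical Bayes with trend) and Benjamini-Hochberg adjustment at 0.05. The code was also run on simulated data with 200 changed genes and independent noise. Those data held no outlying library, so the run does not vouch for the fit with PBS library 3. Single genes also had an exact permutation test. The members and lists were chosen with earlier results of these data known. Named genes were the 8 members, the 3 genes of highest r with each, and in each list those past the threshold, up to 3 per direction with unadjusted p under 0.05 and the 3 most abundant. AL132780.3, TIGD1, COL1A1, COL1A2, TAGLN, FN1, PDGFRB, CSF1, IL18, NFKBIZ and HAS2 were named in places after their values were seen. A few list entries are not reported here and were left out of the list counts and sums, whatever their values.

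Alternatives were pseudocounts of 0.1 and 5, no filter or one at 5 FPKM, scaling to the same sum or by the median of ratios, no trend, robust moderation, omission of each library in turn and a block for the library number. Rescaling without mitochondrial genes was chosen after seeing the data. Promoters and transcripts came from RefSeq (GRCh38.p14) and GENCODE v29.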

Additional observations from a re-analysis of the deposited data

How the results depend on the processing

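None of the 8 genes passed the adjusted threshold under any alternative. Of 127 values recomputed, 125 kept their direction and side of the threshold. The other 2 changed sign without PBS library 3, IL6 to -0.19 and IL32 to 0.068 on the log2 scale. With 1 library left out, IL6 ranged from -0.19 to 0.29 and IL32 from -0.59 to 0.068. Over all genes, limma called 2 higher and 0 lower. It called 1 higher with a pseudocount of 0.1 and 1 with a filter at 5 FPKM, and with 1 library left out 1 to 7 higher and 0 to 4 lower, the most without PBS library 3. The cause of these shifts was not tested. Scaling by the median of ratios left 150 genes higher and 166 lower at an unadjusted p below 0.05, against 269 and 84 as reported, and then CXCL1, CXCL2 and PTX3 were below 0.05. CCL2 missed the filter at 5 FPKM. With the library number as a block 1 gene was called higher. The labels do not say whether the numbers pair the libraries. Same-numbered libraries deviated with r of -0.044, -0.19 and -0.42, and differently numbered ones with r from -0.27 to 0.38. With 3 libraries per group, these values cannot decide it. Depth is unknown, so no limit from depth can be given.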
